A study of Saccharomyces cerevisiae with 4 samples.

Results

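The transcripts described here encode cytosolic aminoacyl-tRNA synthetases of budding yeast, Saccharomyces cerevisiae, and were chosen by name: 10 genes, namely ILS1, CDC60, VAS1, GUS1, SES1, DED81, KRS1, THS1, ALA1 and GRS1. The deposited site table was searched for rows assigned to any of them, and 9 of its 1892 sites were found, in 5 of the 10 genes. Of all 6002 nuclear protein-coding genes, 1251 (20.8%) had a listed site, with gene length and expression not taken into account. ILS1, VAS1, GUS1 and SES1 held 2 sites each and CDC60 held 1, while DED81, KRS1, THS1, ALA1 and GRS1 had no listed site. The series mapped 5-formylcytidine (f5C) in poly(A)+ RNA. There were 2 libraries from RNA fragments treated with pyridine borane (0.9 M, pH 5.2, 37 °C, 24 h) and 2 input libraries from untreated RNA, numbered 1 and 2 in each group. All came from yeast cells of a picked colony grown overnight at 28 °C in rich medium, and the labels name no strain, no mutation and no separate cultures, so the spread between the 2 libraries of a group may be technical.

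An aminoacyl-tRNA synthetase joins an amino acid to its own tRNAs, which is the step that fixes the genetic code before the ribosome acts. The enzymes fall into 2 unrelated structural classes, I and II, and yeast keeps most cytosolic and mitochondrial enzymes on separate nuclear genes. f5C is an oxidised form of 5-methylcytidine and is best known from the wobble position of the mitochondrial methionine tRNA of animals. Pyridine borane reduces f5C to a base that reverse transcriptase reads as U, so that a modified cytidine gives mutated reads after treatment and unchanged reads in input.

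The 9 synthetase sites had low and similar levels, and their treated values stood far from those of input. The level of a site is the percentage of covering reads that carried a mutation, averaged over the 2 replicates. These levels ran from 7.89% to 9.82%, with a median of 8.60%. With all sites and replicates summed, 1234 of 14215 treated reads were mutated (8.68%, Wilson 95% interval 8.23% to 9.16%), against 7 of 13151 input reads (0.0532%, interval 0.0258% to 0.110%). The intervals take all summed reads as independent, so they cover counting error only and leave out the spread between sites and between libraries. No molecular identifiers are named, and sites of one gene can lie on the same reads. The highest value of any of these sites in a single input library was 0.183%, below every treated value of the 9. The authors selected the sites on these libraries, and no listed site has a treated value under 7.5%. By Fisher exact test 100% of the 1892 listed sites were higher in treated RNA, so this separation is not a result about the synthetases.

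Median depth at these sites was above that of the table as a whole. Covering reads ranged from 379 to 2311 in treated replicate 1 and from 278 to 1555 in treated replicate 2, against 417 to 1848 in input replicate 1 and 298 to 1512 in input replicate 2. The median over the 9 sites was 796 and 539 reads in treated replicates 1 and 2, against 469 and 327.5 over all listed sites. No total depth of the libraries was used here. The table holds only sites that the authors selected in both replicates, and its lowest treated value is 7.5% in either replicate. A transcript without a listed site is therefore not shown to lack f5C, and its coverage is not analysed here.

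**Figure D1:**
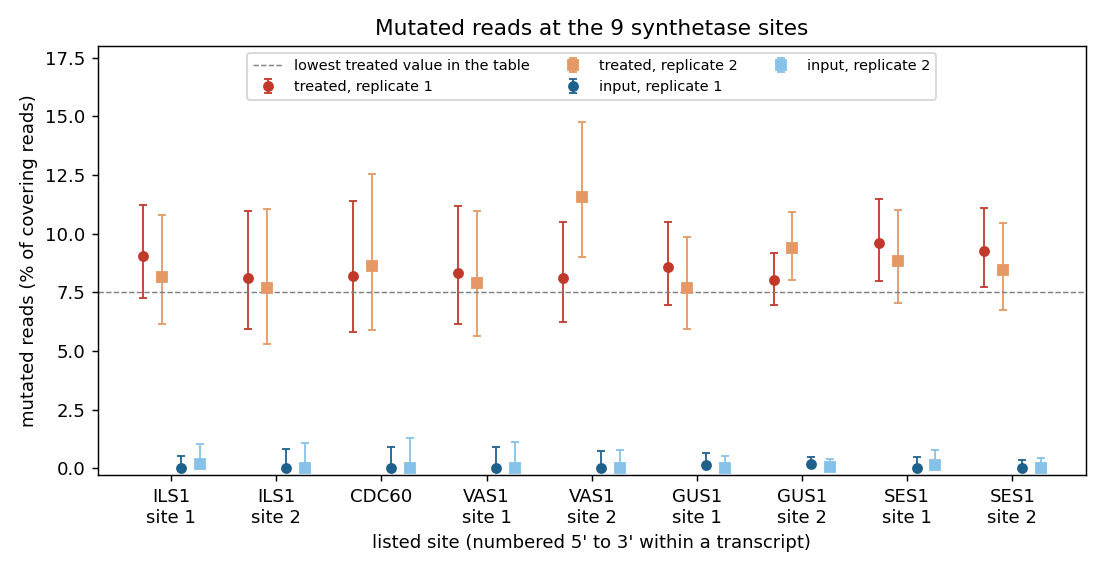
Mutated reads as a percentage of covering reads (vertical axis) at the 9 synthetase sites (horizontal axis, site 1 upstream of site 2), with treated replicates left of input replicates, bars for Wilson 95% intervals of each library, and a dashed line at 7.5%, the lowest treated value in the table. Treated values lie between 7.66% and 11.6%, and no input value is above 0.183%.

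Class I was represented in the table by all 4 of its members among the 10 genes. ILS1 (YBL076C) encodes the isoleucyl-tRNA synthetase. Its transcript, on the minus strand of chromosome II, had an upstream site at position 81991 and a downstream site at position 81693, 298 nt apart. The sources used here do not state the genome build of these positions. At the upstream site the mutated share was 9.05% of 796 reads in treated replicate 1 and 8.16% of 539 reads in treated replicate 2, against 0% of 752 reads and 0.183% of 547 reads in input replicates 1 and 2. Only 1 mutated input read was seen there. The downstream site had 8.10% of 457 reads and 7.69% of 338 reads in the treated replicates, against no mutated read among 461 and 358 input reads. This was the lowest level of the 9, at 7.89% ± 0.286 (SD, n = 2). In treated replicate 2 its 26 mutated reads were exactly the number that a minimum of 7.5% requires at that coverage.

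CDC60 (YPL160W) encodes the leucyl-tRNA synthetase, which in yeast also acts as a leucine sensor upstream of the growth regulator TORC1. Its single site, at position 249530 on the plus strand of chromosome XVI, was the shallowest of the 9. It had 8.18% of 379 reads and 8.63% of 278 reads mutated in the treated replicates, against 0 of 418 and 0 of 298 reads in input. Over both input libraries, 0 of 716 reads allows a share of up to 0.419%. The treated level of 8.41% ± 0.321 (SD, n = 2) was thus set against an input that showed no mutated read at this depth.

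VAS1 (YGR094W) encodes the valyl-tRNA synthetase, and in yeast this gene supplies both the cytosolic and the mitochondrial enzyme. Its 2 sites lay 89 nt apart on the plus strand of chromosome VII, at positions 673218 and 673307, the shortest gap among these genes. The upstream site had 8.32% of 469 reads and 7.89% of 393 reads mutated in treated RNA, and 0 of 417 and 0 of 342 reads in input. At the downstream site, 8.10% of 630 reads were mutated in treated replicate 1 and 11.6% of 476 reads in treated replicate 2, against 0 of 535 and 0 of 489 reads in input. The value in replicate 2 was the highest of all 18 treated values, and it set the highest level of the 9 sites, 9.82% ± 2.45 (SD, n = 2).

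GUS1 (YGL245W) encodes the glutamyl-tRNA synthetase, which forms a cytosolic complex with the cofactor Arc1 and the methionyl-tRNA synthetase Mes1. Its sites lay at positions 39461 and 39627 on the plus strand of chromosome VII, 166 nt apart. The upstream site had 8.57% of 969 reads and 7.66% of 718 reads mutated in the treated replicates, against 0.114% of 876 and 0% of 720 reads in input. The downstream site had 8.01% of 2311 reads and 9.39% of 1555 reads, against 0.162% of 1848 and 0.0661% of 1512 reads in input. It was the deepest of the 9 sites and, with 4 mutated input reads over both libraries, the one with the most. Its coverage was above that of the upstream site in all 4 libraries, so the ratio of upstream to downstream reads was 0.419 and 0.462 in treated replicates 1 and 2, and 0.474 and 0.476 in the input replicates.

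SES1 (YDR023W), which encodes the seryl-tRNA synthetase, was the only class II gene of the 10 with a listed site. Its sites were at positions 489981 and 490271 on the plus strand of chromosome IV, 290 nt apart. The upstream site had 9.59% of 1116 reads and 8.84% of 792 reads mutated in treated RNA, against 0% of 823 and 0.136% of 736 reads in input. The downstream site had 9.27% of 1133 reads and 8.43% of 866 reads, against 0 of 1157 and 0 of 862 reads in input. Among the 9 sites, these 2 had the highest values in treated replicate 1. Their lower Wilson bounds with replicates summed, 8.06% and 7.73%, were both above 7.5%.

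**Figure D2:**
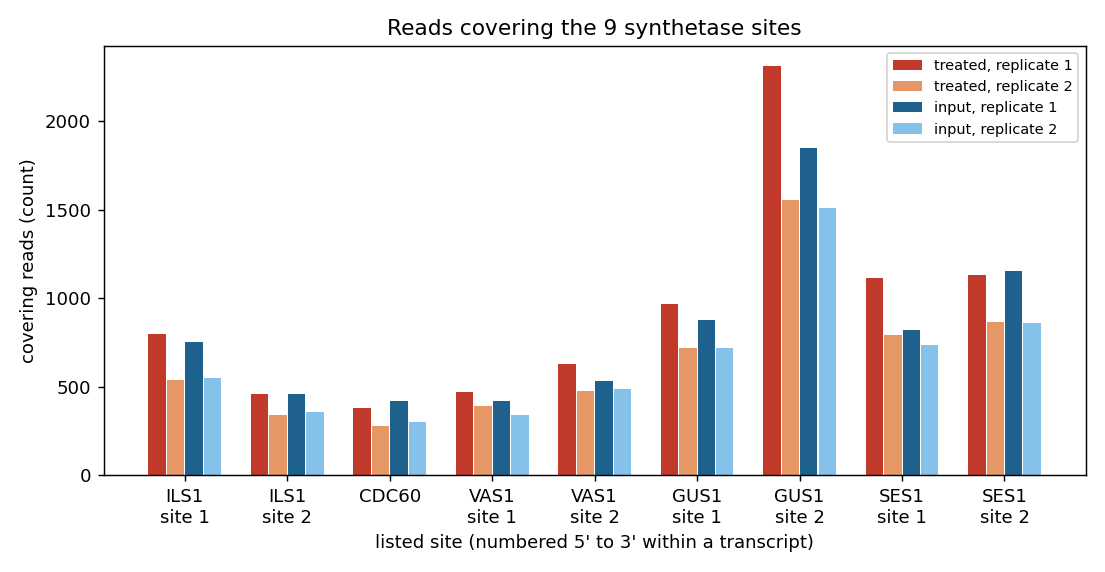
Reads covering each of the 9 synthetase sites (vertical axis, counts from 0) in the 2 treated and the 2 input libraries (bars, treated left of input). The downstream GUS1 site is the deepest, with 2311 reads in treated replicate 1, and the CDC60 site has 278 reads in treated replicate 2.

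The first comparison asks how much higher the mutated share was in treated than in input RNA at each site. By two-sided Fisher exact test on summed counts, with Benjamini-Hochberg adjustment over all 1892 sites, all 9 synthetase sites were higher in treated RNA, and the largest adjusted p was 1.24e-18, at CDC60. The same test called 100% of the table, and the authors had selected the sites on these libraries, so the calls describe the list and do not set the synthetases apart. The difference between treated and input, subtracted within each replicate number, ran from 7.89 ± 0.286 points at the downstream ILS1 site to 9.82 ± 2.45 points at the downstream VAS1 site (SD, n = 2 each).

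As a ratio, these differences were known only within wide bounds, because input mutations were so rare. No mutated input read was seen at 5 of the 9 sites. Against a limit of 3 reads over the summed input coverage, the observed treated share was 59.9-fold higher at the downstream SES1 site, the highest of these 5 ratios. At CDC60 it was 19.98-fold higher, the lowest. These 5 ratios leave out the counting error of the treated share, so they are not lower bounds of an interval. At the downstream GUS1 site, with 4 mutated input reads, the ratio was 71.9 (exact 95% interval 27.8 to 266). For the upstream GUS1 site, with 1 such read, it was 131 (exact interval 23.0 to 5194). In the authors' deposited table the finite fold changes of these sites lay between 44.7 (upstream ILS1, replicate 2) and 142 (downstream GUS1, replicate 2), and the largest q-value was 3.55e-05, at the downstream ILS1 site in replicate 2.

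The spread between treated replicates was compared with the differences among sites. Replicate 2 was the higher one at 3 of the 9 sites, namely CDC60 and the downstream sites of VAS1 and GUS1, and the lower one at 6. The median absolute difference was 0.838 points, beside 0.870 points over the other listed sites. By Fisher exact test between the replicates 0 of the 9 sites differed, and 0% of the whole table did after adjustment. At an unadjusted p of 0.05 the count was again 0 of 9, against 2.75% of the table. Only sites selected in both replicates are listed, so these counts cannot show how well the replicates agree. The downstream VAS1 site came nearest, with a difference of 3.46 points, replicate 2 minus replicate 1 (95% Newcombe interval -0.0512 to 7.16, unadjusted exact p = 0.0630, adjusted p = 1).

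In order of level, the sites ran from downstream ILS1 (7.89%), upstream VAS1 (8.10%), upstream GUS1 (8.11%), CDC60 (8.41%), upstream ILS1 (8.60%), downstream GUS1 (8.70%), downstream SES1 (8.85%) and upstream SES1 (9.21%) to downstream VAS1 (9.82%). This order is not resolved by the data. The Wilson 95% intervals of all 9 sites, with replicates summed, share the range from 8.06% to 9.49%, and no neighbours in the order differed by more than the larger SD of the pair. For 5 of the 9 sites the lower bound was under 7.5%, and in both treated libraries CDC60, downstream ILS1 and upstream VAS1 were at most 3 mutated reads above the number that 7.5% requires.

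The 4 genes with a pair of sites allowed a comparison within one transcript. By two-sided Fisher exact test on treated reads summed over the replicates, adjusted over all 968 pairs of sites that share a gene, 0 of the 4 pairs differed. Of all these pairs 7.44% passed, and 15% at an unadjusted p of 0.05, where the count for these genes was also 0. The upstream site minus the downstream site gave 0.765 points in ILS1 (95% Newcombe interval -1.75 to 3.11), -1.46 points in VAS1 (-3.96 to 1.11), -0.382 points in GUS1 (-1.91 to 1.26) and 0.372 points in SES1 (-1.43 to 2.19). All 4 intervals include 0, and each reaches more than 1 point to both sides of it, so equality within a transcript is not shown. In VAS1 the sites differed by 0.220 points in replicate 1 and by -3.67 points in replicate 2. Sites this close can lie on the same reads or fragments, and the test takes their reads as independent.

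**Figure D3:**
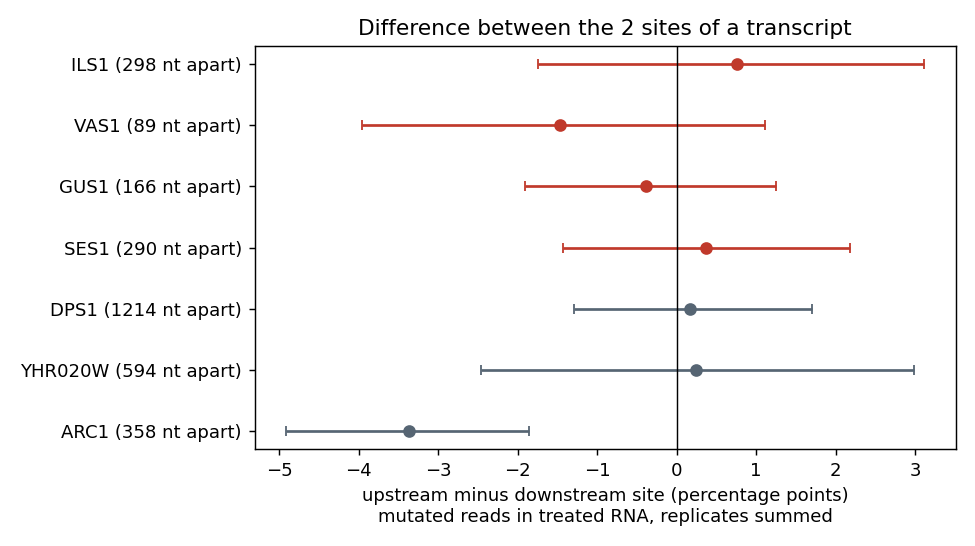
Level of the upstream site minus that of the downstream site (horizontal axis, percentage points, treated replicates summed) for each synthetase-related transcript with 2 listed sites, with bars for 95% Newcombe intervals; red points are ILS1, VAS1, GUS1 and SES1, and grey points are the other genes. The ARC1 interval, from -4.91 to -1.85 points, is the one that does not include 0.

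The remaining genes of tRNA charging were read from a list of 37, which adds 12 other cytosolic synthetases, the cofactor ARC1 and 14 mitochondrial synthetases to the 10. Among the 12 other cytosolic genes, 5 had a listed site, with 7 sites in all. DPS1, for the aspartyl enzyme, and YHR020W, for the prolyl enzyme, had 2 sites each, and 1 site each was found in FRS1 and FRS2, which encode the beta and alpha subunits of the phenylalanyl enzyme, and in YDR341C, for the arginyl enzyme. No site was listed for CRS1, GLN4, GRS2, HTS1, MES1, TYS1 or WRS1. In total 10 of 22 cytosolic synthetase genes had a site (45.5%), beside 1251 of 6002 nuclear protein-coding genes (20.8%). Coverage and length of genes without a site were not used, so this share is not separated from expression or length.

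By class, the 10 genes and the full set gave different pictures. Of the 10, all 4 class I genes but 1 of 6 class II genes had a site. Over all 22 cytosolic genes the counts were 5 of 10 in class I and 5 of 12 in class II. The 10 genes were picked with earlier results of these data known, so the split within them carries no weight of its own. DED81, the asparaginyl enzyme gene without a site, and YHR020W, with 2, are direct neighbours among protein-coding genes in RefSeq R64.

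Levels in the other cytosolic synthetases covered nearly the same range as in the 10 genes. The 7 sites ran from 7.95% in YDR341C to 9.27% in FRS1, with a median of 8.20%. FRS1 (chromosome XII, position 262287, plus strand) had 9.52% of 693 reads and 9.01% of 455 reads mutated in treated RNA, against 0% of 565 and 0.196% of 509 reads in input. FRS2 (chromosome VI, position 94591, minus strand) had 7.85% of 752 and 9.63% of 488 reads, against 0.165% of 606 and 0% of 494 reads. The genes of both subunits of this one enzyme thus carried a site, with levels of 9.27% ± 0.363 and 8.74% ± 1.26 (SD, n = 2 each). The YDR341C site (chromosome IV, position 1153560, minus strand) was the shallowest, with 7.60% of 263 and 8.29% of 217 reads, against 0 of 245 and 0 of 202 input reads.

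DPS1 carried the most widely spaced pair, 1214 nt apart on the minus strand of chromosome XII. Its upstream site at position 111163 had 8.38% of 1146 and 8.47% of 874 treated reads mutated, and its downstream site at position 109949 had 8.42% of 2279 and 7.98% of 1553. None of the 2097 and 3491 input reads over these 2 sites was mutated. In YHR020W the sites at positions 145086 and 145680 of chromosome VIII had levels of 8.16% ± 0.880 and 7.98% ± 0.0980 (SD, n = 2 each), against 1 mutated read of 748 and 0 of 759 in input. Neither pair differed by the Fisher exact test (adjusted p = 1 for both).

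The 2 sites of ARC1 differed in level with the treated replicates summed. The Arc1 protein binds tRNA and holds the glutamyl and methionyl enzymes in their complex, and the transcript had sites at positions 308084 and 308442 on the plus strand of chromosome VII. The upstream site had 7.57% of 1863 and 7.83% of 1162 treated reads mutated, against 0.0632% of 1583 and 0.0764% of 1309 input reads. In treated replicates 1 and 2 this was 1 and 3 mutated reads above the number that 7.5% requires. The downstream site had 9.92% of 1543 and 12.6% of 1102 treated reads, against 0.0737% of 1357 and 0% of 1070 input reads. The difference was -3.37 points, upstream minus downstream (95% Newcombe interval -4.91 to -1.85, Fisher exact test adjusted over 968 pairs p = 0.000320), and it had the same sign in both replicates, -2.35 and -4.78 points. In replicate 1 alone it did not pass (adjusted exact p = 0.229), and in replicate 2 alone it did (adjusted exact p = 0.00477). The replicates of the downstream site themselves differed at an unadjusted exact p of 0.0323, which did not pass adjustment. Of the complex of 3 proteins, then, GUS1 and ARC1 had 2 sites each and MES1 had none.

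None of the 14 mitochondrial synthetase genes had a listed site, beside 1251 of 6002 nuclear protein-coding genes (20.8%) that did. The 14 genes were MSD1, MSE1, MSF1, MSK1, MSM1, MSR1, MST1, MSW1, MSY1, NAM2, ISM1, SLM5, DIA4 and AIM10. All are nuclear genes, and the list used here counts them as mitochondrial synthetases. Their coverage was not analysed here, so the part of depth in this count was not tested. VAS1, which supplies both the cytosolic and the mitochondrial enzyme, had 2 sites, while ALA1 and GRS1, which do so too, had none.

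**Figure D4:**
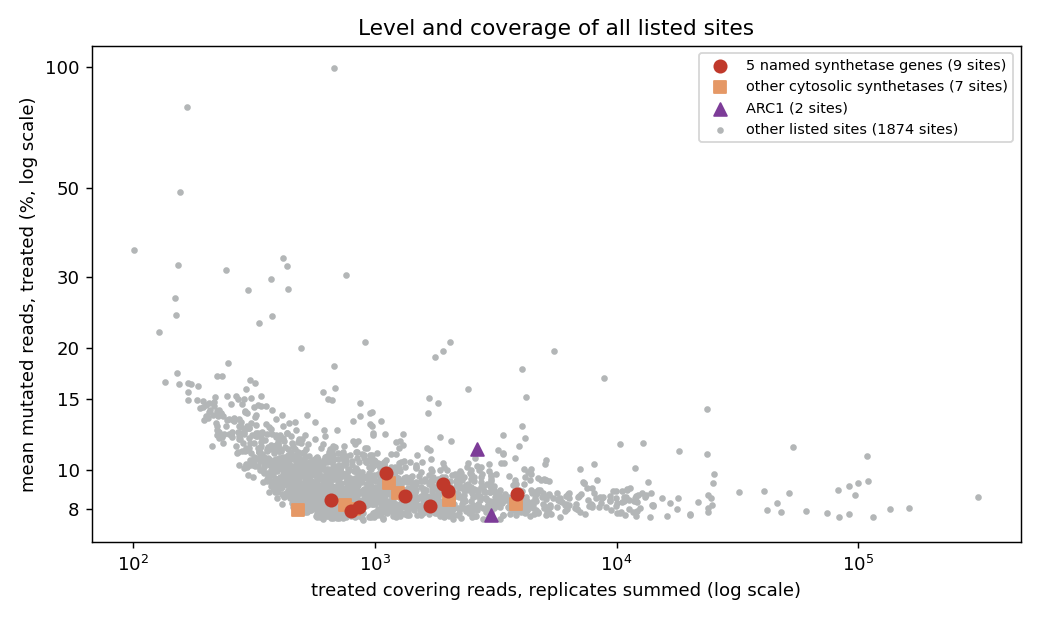
Mean treated level (vertical axis, percent, log scale) against treated covering reads summed over the replicates (horizontal axis, log scale) for all 1892 listed sites, with the 9 synthetase sites in red, the 7 sites of other cytosolic synthetases in orange and the 2 ARC1 sites in purple. All synthetase sites lie under 10%, and among the other sites of like depth the median is 8.72%.

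Set beside the rest of the table, the synthetase sites lay in its lower and middle part. Between 7.51% of listed sites (for downstream ILS1) and 69.8% (for downstream VAS1) had a lower level than a given one of the 9. Their median was 8.32% in replicate 1 and 8.43% in replicate 2, beside 8.75% and 9.09% over the 1883 other sites. The quartiles of the level over those other sites were 8.35% and 10.1%. Among the 919 other sites within the same range of 657 to 3866 treated reads, a set chosen after seeing the data, the median was 8.72% and the quartiles were 8.20% and 9.51%. All 9 levels were under 10%, as were 72.4% of the other sites and 84.3% of those of like depth. The share without a mutated input read, 5 of 9 (55.6%), stood beside 56.6% at like depth. These are descriptions without a test, and they mark no feature as particular to the synthetases.

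Genes with more than 1 site were 4 of the 5 with a site here, beside 425 of 1253 in the table (33.9%). Among the other cytosolic synthetases they were 2 of the 5 with a site. Neighbouring sites of a gene lay a median of 311 nt apart over 636 such gaps in the table (quartiles 100 and 732 nt), and the 4 gaps in these genes, 89, 166, 290 and 298 nt, all fell below that median. The gaps in DPS1, YHR020W and ARC1, of 1214, 594 and 358 nt, were all above it. Depth and gene length were not taken into account in these counts. Of the 9 sites 7 were on the plus strand, on which 953 of all 1892 sites lay.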

How the data were processed

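Per the labels, poly(A)+ RNA was fragmented, treated or left untreated, and made into directional libraries. Per the submitters' processing notes, cutadapt and STAR were used, without versions. The sources used here state no genome build or site caller. The deposited table holds counts of covering and mutated reads per site and library, a deposited fraction equal to mutated over covering reads (largest deviation 3e-08), and the authors' ratio (fold change), p-value and q-value for each replicate. Which base replaced the cytidine is not stated there. Sample titles gave the groups and replicate numbers.

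Percentages, Wilson and Newcombe intervals and Fisher exact tests were computed from the counts over the whole table, with Benjamini-Hochberg adjustment and a minimum of 10 reads per group. Every site of the 10 genes is named, and of the 27 further genes every site. All 37 gene IDs matched RefSeq R64 locus tags, which served for symbols and gene order only. The genes and lists were chosen with earlier results of these data known. Alternatives were coverage minimums, single replicates, a replicate block, other tests and other summaries of level. Sequence context was not analysed here. Python 3.11.15, numpy 2.4.6, scipy 1.17.1, pandas 2.3.3, statsmodels 0.14.6 and matplotlib 3.10.9 were used.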

Additional observations from a re-analysis of the deposited data

How the results depend on the processing

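The 9 sites were higher in treated RNA, 0 of 9 differed between replicates and 0 of 4 pairs differed, under each alternative run for them. The authors selected sites on these libraries, which fixes the first count, and no listed site had a replicate under 7.5%. With the replicate number as a block (Cochran-Mantel-Haenszel test) the counts were 9 sites and 0 pairs, and the ARC1 pair had an adjusted p of 0.000352. Treated and input libraries share replicate numbers in their titles, and the authors' fold changes set treated against input of equal number. The titles do not state what a shared number stands for. Across all 1892 sites, Pearson r between treated and input coverage deviations, matched by number, was -0.00502. For deviations in mutated percentage, r was 0.106 over the 680 sites with a mutated input read. The binomial test against a flat rate of 2% also called 9. The median level of 8.60% was 8.51% after subtracting input, 8.41% as a median over gene means, and 8.32% to 8.43% with a replicate left out, shifts larger than the SD of 0.0806 points between the medians of the replicates. At a minimum level of 10%, 0 of the 10 genes and 0 of the 22 cytosolic genes kept a site. All 16 of their sites had levels under 10%, as had 72.4% of the 1883 sites other than the 9. ARC1 lost its call in replicate 1 alone (adjusted exact p = 0.229), and the cause was not tested. At the depth of the 4 pairs, 795 to 3866 treated reads per site with replicates summed, each 95% interval of the difference included 1 or -1 point as well as 0.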
